A study of Homo sapiens with 2 samples.

Results

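The liver-enriched transcription factors examined here were HNF4A, HNF4G, FOXA1, FOXA2, FOXA3, ONECUT1, CEBPA and PROX1. These 8 genes were found by their symbols among the 58174 genes listed for each library, and each symbol matched 1 gene. PLC-8024 is a human hepatocellular carcinoma (HCC) cell line. Polyadenylated RNA was sequenced from PLC-8024-CTR cells, carrying a control vector, and from PLC-8024-GDF1 cells, which were transduced with lentivirus carrying human GDF1 and selected with puromycin. GDF1 is a secreted ligand of the TGF-β superfamily, and the comparison addresses which genes differ when it is overexpressed. Each condition had 1 library, and whether the transduced cells were a pool or a clone is not given in the sources used here.

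Hepatocyte identity rests on a small set of transcription factors that bind each other's genes as well as a wide range of liver genes. FOXA proteins are pioneer factors that open chromatin in the foregut endoderm, HNF4A is the nuclear receptor that holds the mature hepatocyte programme together, and C/EBPα drives metabolic genes and restrains proliferation. ONECUT1, also called HNF6, acts in early liver and bile duct development, and PROX1 is a homeobox factor of the liver bud that also works as a corepressor of HNF4A. Loss of HNF4A is a well-known feature of poorly differentiated liver tumours.

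The upstream sequences of HNF4A, FOXA1 and FOXA3 are shown because HNF4A had one of the largest differences among the factors while the other pair differed little, and because these genes are textbook members of a cross-regulating circuit. Of the 8 factors, 5 were matched by symbol in the table of RefSeq promoters (GRCh38.p14) used here, and FOXA2, PROX1 and HNF4G were not. HNF4A had 2 start sites, the upstream one being its P2 promoter and the downstream one its P1 promoter. The 250 bases before each start are printed 5′ to 3′, and capitals mark matches to any of 7 short motifs searched on both strands. The letters were ATNGAT for ONECUT proteins, TTNNGCAA for C/EBP proteins and CAGAC for SMAD proteins, which act downstream of TGF-β ligands. TGTTTNC and the related TGTTTG stand for forkhead proteins, and CAAAGTCC and its first part CAAAGT stand for HNF4 proteins, so matches within these pairs can overlap.
HNF4A, upstream start (chr20:44355449-44355698, plus strand): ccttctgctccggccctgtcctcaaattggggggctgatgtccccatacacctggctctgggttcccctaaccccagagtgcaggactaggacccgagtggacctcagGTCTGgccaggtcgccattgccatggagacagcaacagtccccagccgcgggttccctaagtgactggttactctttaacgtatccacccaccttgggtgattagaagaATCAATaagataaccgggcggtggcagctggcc
HNF4A, downstream start (chr20:44400989-44401238, plus strand): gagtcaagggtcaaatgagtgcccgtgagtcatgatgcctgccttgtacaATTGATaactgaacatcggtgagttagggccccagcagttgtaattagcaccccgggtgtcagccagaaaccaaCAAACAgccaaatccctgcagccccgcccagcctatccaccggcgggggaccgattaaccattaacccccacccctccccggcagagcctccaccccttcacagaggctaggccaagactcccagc
FOXA1 (chr14:37595250-37595499, minus strand): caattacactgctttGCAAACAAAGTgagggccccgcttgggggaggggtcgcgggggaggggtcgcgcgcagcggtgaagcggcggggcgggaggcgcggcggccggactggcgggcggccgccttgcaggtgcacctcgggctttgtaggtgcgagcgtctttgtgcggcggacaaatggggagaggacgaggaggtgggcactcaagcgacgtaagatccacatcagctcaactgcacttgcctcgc
FOXA3 (chr19:45864076-45864325, plus strand): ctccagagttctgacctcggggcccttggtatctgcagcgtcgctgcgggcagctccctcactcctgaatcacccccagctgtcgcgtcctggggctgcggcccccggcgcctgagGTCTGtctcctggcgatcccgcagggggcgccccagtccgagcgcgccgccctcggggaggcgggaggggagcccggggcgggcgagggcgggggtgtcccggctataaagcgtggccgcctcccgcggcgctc
The downstream HNF4A sequence held 1 ONECUT match and 1 match to TGTTTG. Among 34788 different RefSeq promoters of the same length, 15% held the ONECUT letters and 12.8% held TGTTTG. The upstream HNF4A sequence held 1 ONECUT match and 1 SMAD match, and the SMAD letters also occurred once in FOXA3 and once in ONECUT1. They were common, being found in 38% of all promoters. FOXA1 held 1 match to TGTTTNC that overlaps 1 to TGTTTG, and these overlap a match to CAAAGT. Of all promoters, 15.5% held TGTTTNC and 10.3% held CAAAGT. None of the 7 motifs occurred in the CEBPA sequence, and CAAAGTCC (1.01% of promoters) and TTNNGCAA (9.05%) occurred in none of the sequences of the 5 factors. A match describes the letters only and does not show a bound site.

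Expression is given in TPM, in which read numbers are divided by gene length and set to a common total per library, so levels of different genes can be compared within a library. TPM keeps no sequencing depth, and no counting error can be given. A change is the log2 ratio of TPM in PLC-8024-GDF1 to TPM in PLC-8024-CTR after adding 1 TPM to both, a scale that understates the change of genes with low TPM. A gene is said to have risen or fallen only when this change passed 2-fold. For 14929 genes the TPM reached 1 in one library or both, and over these the median change was -0.20. A gene at that value changed as the typical gene did. No test was made, since nothing was replicated, and all values describe these 2 libraries. The libraries are bulk RNA, so fewer expressing cells and less RNA per cell cannot be told apart.

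The introduced gene was at 2.1 TPM in control cells and 4.64 TPM in PLC-8024-GDF1. The overlapping gene CERS1, whose transcript also holds the GDF1 coding sequence, was listed at 13.3 and 9612 TPM. Hepatocyte markers were present in both libraries, among them SERPINA1 (5308 and 2915 TPM), FGB (1991 and 1517 TPM) and TF (1318 and 1434 TPM). However, HP was listed at 1.02 and 0.20 TPM and TTR at 7.17 and 0.34 TPM. Of the 8 hepatocyte markers, 3 fell past 2-fold (37.5%, against 9.61% of all genes) and none rose. These were TTR, ALB (15.0 to 6.07 TPM) and APOA1 (603 to 158 TPM). ALB no longer passed with PLC-8024-GDF1 values rescaled so that the typical gene did not change (-0.998). With the trend of changes with GC content removed it lay at -0.73. All 3 are counted again below among the hepatocyte target genes, so the counts are not independent. The lists were written with earlier results on ALB and TTR in these libraries known. Markers of white blood cells, fibroblasts and lymphatic endothelium, the last of which also use PROX1, were mostly absent. PTPRC, DCN, COL1A2, LYVE1, PDPN, FLT4 and VWF were listed at or under 0.0001 TPM, the value that stands for 0, in both libraries. PECAM1 (23.2 and 22.2 TPM) and CD68 (33.1 and 13.2 TPM) were the markers of these lists that reached 1 TPM, and the other 5 lay under 1 TPM in both libraries. Added up, the 4 white blood cell markers made 33.6 and 13.7 TPM, the 4 fibroblast markers 0.58 and 1.36 TPM and the 6 lymphatic endothelial markers 23.5 and 22.4 TPM, and their part in the results was not tested.

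Of the 8 factors, FOXA2 and HNF4A fell past 2-fold in PLC-8024-GDF1 cells, none rose, and 6 stayed within 2-fold. Over all 14929 genes, 9.61% fell and 4.82% rose past 2-fold, together 14.4%. With the PLC-8024-GDF1 values rescaled so that the typical gene did not change, 6.85% of all genes fell and 6.97% rose, together 13.8%, and FOXA2 alone among the factors fell. With the plain TPM ratio 16.1% fell and 7.88% rose, together 24%, and with a pseudocount of 0.1 TPM 15.5% fell and 7.82% rose, together 23.3%, and the same 2 factors fell under both. With the trend of changes with GC content removed, 5.38% fell and 7.04% rose, together 12.4%, and again FOXA2 alone fell. FOXA3, FOXA1, CEBPA and ONECUT1 lay between 88.3% and 111% of their control TPM. PROX1 and HNF4G were at 57.6% and 52.7% of theirs, but at levels of under 2 TPM. HNF4G did not reach 1 TPM in either library, and PROX1 reached it in the control library alone. The median change of the 7 factors with at least 1 TPM was -0.16, against -0.20 for all genes, and 3 of these 7 values lay below the median of all genes. The changes of 6 of the 7 were below 0, as were 63.3% over all genes.

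**Figure D1:**
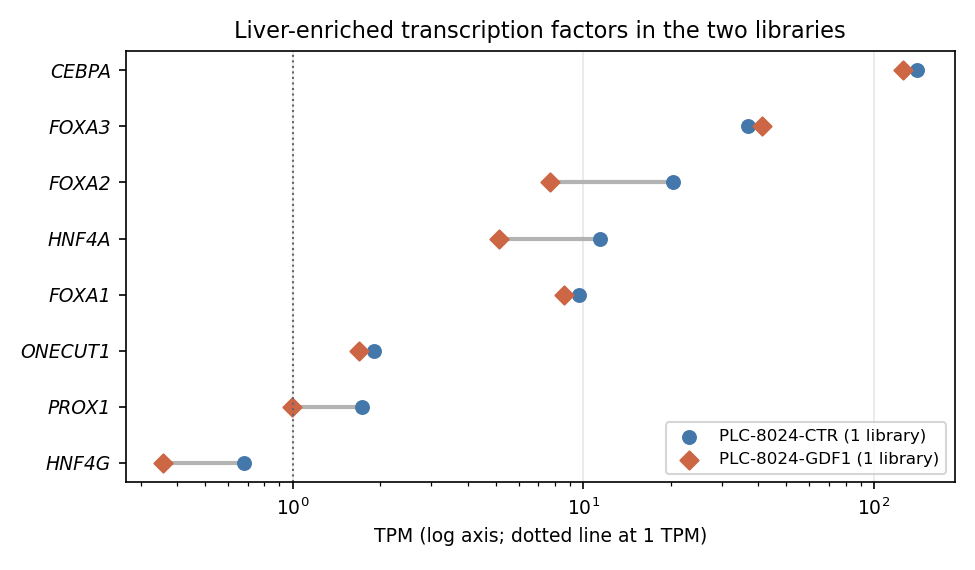
TPM of the 8 factors on a log axis in the single PLC-8024-CTR library (circles) and the single PLC-8024-GDF1 library (diamonds), ordered by level in PLC-8024-CTR, with a dotted line at 1 TPM. FOXA2 (20.4 to 7.70 TPM) and HNF4A (11.4 to 5.15 TPM) show the widest gaps among the genes above 5 TPM, while CEBPA and FOXA3 stay on top in both libraries.

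FOXA2 showed the largest change. It was listed at 20.4 TPM in control cells and 7.70 TPM in PLC-8024-GDF1, 37.8% of the control level, with a log2 change of -1.30. This was 1.10 below the median of all genes, and 4.84% of genes had a lower change. FOXA2 (ENSG00000125798) is annotated on the minus strand at chr20:22561636-22566093 of GRCh37 (hg19). It overlaps no other listed gene. The value stayed past 2-fold when PLC-8024-GDF1 TPM were rescaled to centre all genes (-1.11) and when the trend with GC content was removed (-1.25).

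FOXA3 and FOXA1, the paralogues of FOXA2 that bind the same forkhead motif, stayed near their control levels. The TPM of FOXA3 was 36.9 in control cells against 41.1 in PLC-8024-GDF1 (log2 change 0.15). It was the only factor with a change above 0, and this sign was kept under every scaling tried. In GRCh37, FOXA3 lies at chr19:46367247-46377055 (plus strand) and FOXA1 at chr14:38058757-38065264 (minus strand). FOXA1 was listed at 9.68 and 8.61 TPM, a log2 change of -0.15, which turned to 0.03 with rescaled TPM and 0.11 with the GC trend removed. The balance among the paralogues thus differed between the libraries. Added up, the 3 genes made 67.0 TPM in control cells and 57.4 TPM in PLC-8024-GDF1. FOXA2 made up 30.4% of the sum in PLC-8024-CTR and 13.4% in PLC-8024-GDF1. The share of FOXA3 was 55.1% and 71.6%, and that of FOXA1 was 14.4% and 15.0%. These shares compare genes within a library and do not change when all its values are multiplied by the same number. The GC trend differed among the 3 genes (-0.26 at FOXA1, -0.05 at FOXA2 and -0.02 at FOXA3). The shares were not computed with it removed. FOXA1 lay below FOXA2 in the control library (a TPM ratio of 0.47) and above it in PLC-8024-GDF1 (1.12).

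HNF4A was listed at 11.4 TPM in control cells and 5.15 TPM in PLC-8024-GDF1, 45.1% of the control level. Its log2 change of -1.02 lay 0.82 below the median of all genes and only just past 2-fold. It no longer passed after rescaling (-0.84) or after subtraction of the GC trend (-0.86), and was -1.15 as a plain TPM ratio. HNF4A (ENSG00000101076) spans 42984339 to 43061485 on the plus strand of chromosome 20 of GRCh37. A gene-level TPM sums over transcripts, so the P1 and P2 promoters shown above cannot be told apart in these values. HNF4G, the paralogue that binds the same sites and is known for its role in the intestine, was listed at 0.68 and 0.36 TPM. HNF4A exceeded it 16.8-fold in PLC-8024-CTR and 14.3-fold in PLC-8024-GDF1. The sum of both genes was 12.1 TPM in control cells and 5.50 TPM in PLC-8024-GDF1, a fall close to that of HNF4A alone.

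CEBPA had the highest level of the 8 factors and changed little. It was listed at 141 TPM in control cells and 126 TPM in PLC-8024-GDF1, and made up 63.0% and 65.8% of the summed TPM of the 8 genes. Its log2 change was -0.16, turning to 0.05 with rescaled TPM but lying at -0.36 with the GC trend removed. The longest CEBPA transcript is 65.9% G and C, more than 96.7% of genes with at least 1 TPM. CEBPA lies at chr19:33790840-33793440 on the minus strand of GRCh37. CEBPB, a relative that is induced in acute-phase and stress responses, was listed at 355 and 201 TPM (log2 change -0.82). CEBPA was therefore at 0.40 of the CEBPB level in the control library and 0.63 of it in PLC-8024-GDF1.

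ONECUT1 (chr15:53047250-53083275, minus strand) and PROX1 (chr1:214156524-214214853, plus strand, both GRCh37) were listed at low levels. ONECUT1 was at 1.91 TPM in control cells against 1.69 TPM in PLC-8024-GDF1. Its log2 change of -0.12 turned to 0.02 with rescaled TPM and 0.21 with the GC trend removed. PROX1 was at 1.73 TPM in control cells against 0.998 TPM in PLC-8024-GDF1, with a log2 change of -0.45. With a pseudocount of 0.1 TPM the PROX1 change was -0.74, and with the GC trend removed it was -4.8e-05. The longest PROX1 transcript is long, with 8468 bases, and 40.7% of it is G and C.

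The order of the levels differed for FOXA1 alone against its neighbours. From the highest, it was CEBPA, FOXA3, FOXA2, HNF4A, FOXA1, ONECUT1, PROX1 and HNF4G in PLC-8024-CTR. In PLC-8024-GDF1, FOXA1 ranked 3, before FOXA2 and HNF4A, and the rest kept their order. With 1 library each there is no spread against which neighbours in this order could be judged. Set among the 14929 genes, CEBPA exceeded 93.4% of them in PLC-8024-CTR and 93.0% in PLC-8024-GDF1. FOXA2 exceeded 68.6% and 52.7%, and HNF4A exceeded 56.7% and 44.3%. FOXA1 exceeded 53.3% and 55.0%.

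**Figure D2:**
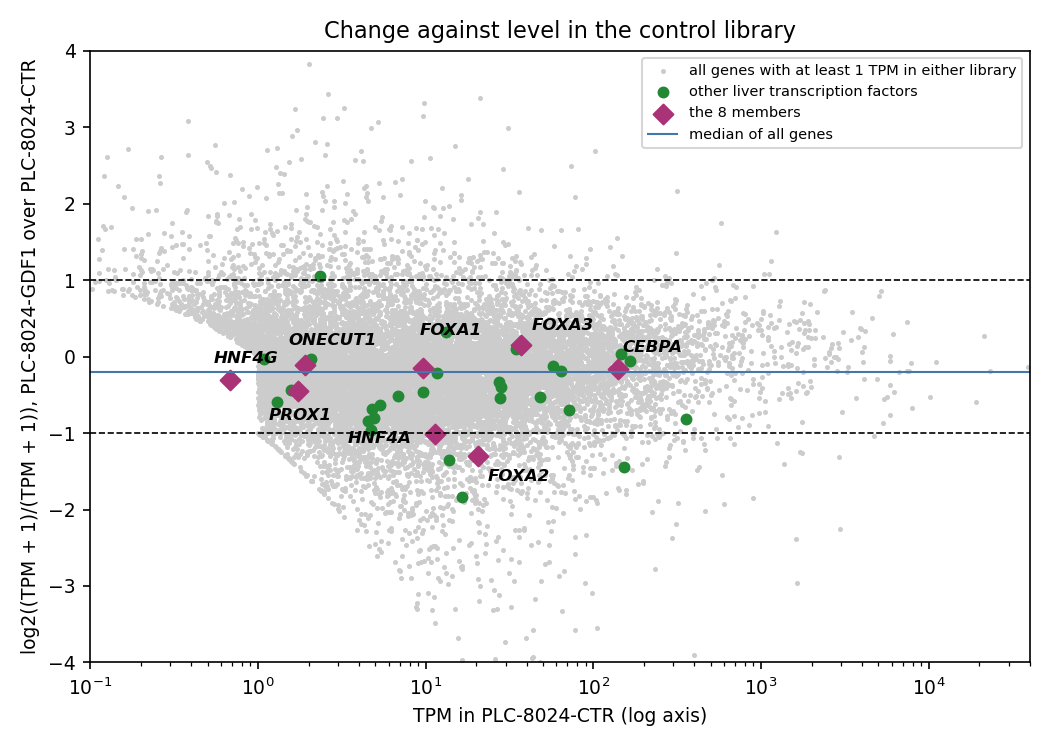
Log2 change (pseudocount 1 TPM) between the single libraries of PLC-8024-GDF1 and PLC-8024-CTR, against TPM in PLC-8024-CTR (log axis), for the 14929 genes that reached 1 TPM (grey), the other liver transcription factors (green) and the 8 factors (purple diamonds). Dashed lines mark 2-fold and the blue line the median of -0.20, and 109 genes fall outside the axes. FOXA2 and HNF4A lie at or below the lower dashed line, and the other 6 factors lie between the dashed lines.

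Other transcripts from the same loci were then examined, taking genes annotated within 100 kb of a factor. FOXA2 had 1 neighbour with at least 1 TPM, the long non-coding RNA LINC00261, which lies 2356 bases away on the same strand and is known to be expressed together with FOXA2 in endoderm. LINC00261 fell from 4.71 to 1.63 TPM (log2 change -1.12). Changes of neighbours are given with the pseudocount of 1 TPM alone, and a value this near 2-fold may not pass with rescaled TPM. Around HNF4A, 6 neighbours had at least 1 TPM, each with a change below 0, against 63.3% over all genes, and a median of -0.58. The smallest changes were those of AL117382.1 (-0.01) and MIR3646 (-0.04), both above the median of all genes (-0.20). MIR3646 overlaps HNF4A on the same strand. TTPAL, a lipid-transfer protein gene, had the lowest, falling from 4.27 to 0.75 TPM (log2 change -1.59). HNF4A-AS1, an antisense RNA that overlaps HNF4A, was listed at 0.79 TPM in control cells and at 0.0001 TPM in PLC-8024-GDF1. It lay under 1 TPM and was picked out after its values were seen. The 8 neighbours of CEBPA had a median change of 0.47, with 5 above 0 and 3 below, the latter including the protein-coding genes CEBPG (28.1 and 21.1 TPM) and PEPD (69.4 and 57.1 TPM). SLC7A10, an amino acid transporter gene, rose from 2.71 to 8.19 TPM (log2 change 1.31). CEBPA-AS1, on the opposite strand 323 bases away, was listed at 4.85 and 8.25 TPM (log2 change 0.66). The overlapping antisense RNAs AC008738.3 (4.16 and 9.04 TPM) and PROX1-AS1 (1.6 and 2.67 TPM, overlapping PROX1) were also listed higher in PLC-8024-GDF1, and AC008738.5, which overlaps CEBPA as well, was listed lower (1.94 and 1.45 TPM). The labels and methods do not say whether reads were counted by strand, and without strand a gene and its antisense partner cannot be told apart.

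The 8 neighbours of FOXA3 ranged from -0.98 (SIX5, 48.4 and 24.1 TPM) to 1.02 (AC074212.1, 32.3 and 66.7 TPM), with a median of 0.06. SYMPK, a polyadenylation factor gene 795 bases away, was listed at 84.3 and 124 TPM. Both neighbours of ONECUT1, FAM214A and AC016044.1, had changes below 0 (-0.69 and -0.80). TTC6, which overlaps FOXA1 on the opposite strand, was listed at 1.01 and 1.6 TPM, and HNF4G had no neighbour with at least 1 TPM. FOXA2 and HNF4A share chromosome 20, on which 10.2% of 400 genes fell past 2-fold with a median change of -0.24, which ranked it 11 among 23 chromosomes by the share that fell. CEBPA and FOXA3 share chromosome 19, which had the smallest share (3.95% of 1139 genes) and a median of 0.06.

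The wider hepatocyte network was read from a list of 36 other liver transcription factors, 30 of which reached 1 TPM. Of those, 4 fell past 2-fold (13.3%, against 9.61% of all genes), 1 rose (3.33%, against 4.82%) and 25 stayed within 2-fold. The list median was -0.49, 26 values were below 0, against 63.3% over all genes, and 21 were below the median of all genes. The same counting with a pseudocount of 0.1 TPM gave 8 that fell and 1 that rose, against 15.5% and 7.82% of all genes.

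Among the nuclear receptors, NR2F2 (COUP-TFII), which is known to compete with HNF4A for its sites, fell from 16.5 to 3.90 TPM. Its log2 change of -1.84 was the lowest of the list. NR0B2 (SHP), an orphan receptor without a DNA-binding domain that represses HNF4A and NR5A2 in bile acid control, was the gene that rose, from 2.34 to 5.95 TPM (log2 change 1.06). HNF4A exceeded NR0B2 4.87-fold in PLC-8024-CTR and stood at 0.86 of it in PLC-8024-GDF1. Against NR2F2 the ratio went the other way, with HNF4A at 0.69 of NR2F2 in PLC-8024-CTR and 1.32 of it in PLC-8024-GDF1. NR1H4, the bile acid receptor FXR, was listed at 5.33 and 3.08 TPM (log2 change -0.63). PPARA, which drives fatty acid oxidation, was listed at 4.88 and 2.38 TPM (log2 change -0.80). RXRA, the shared partner of many of these receptors, was at 11.7 and 9.97 TPM (log2 change -0.21). NR2F6, an orphan receptor related to NR2F2, was at 164 and 158 TPM (log2 change -0.06, 0.15 with rescaled TPM).

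Of the remaining list, XBP1, a factor of the unfolded protein response and of secretory capacity, fell from 152 to 55.1 TPM (log2 change -1.45). KLF15, which acts in amino acid and glucose metabolism during fasting, fell from 13.7 to 4.77 TPM (log2 change -1.35). HHEX, a homeobox factor needed for the liver bud, was listed at 13.2 and 16.8 TPM (log2 change 0.32). GATA4, a partner of FOXA proteins in foregut endoderm, was at 4.76 and 2.59 TPM (log2 change -0.68), while GATA6 was listed at 0.0001 TPM in both libraries. The ONECUT1 paralogue ONECUT2 was at 1.09 and 1.03 TPM, and ONECUT3 was listed at 0.0001 TPM in both.

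**Figure D3:**
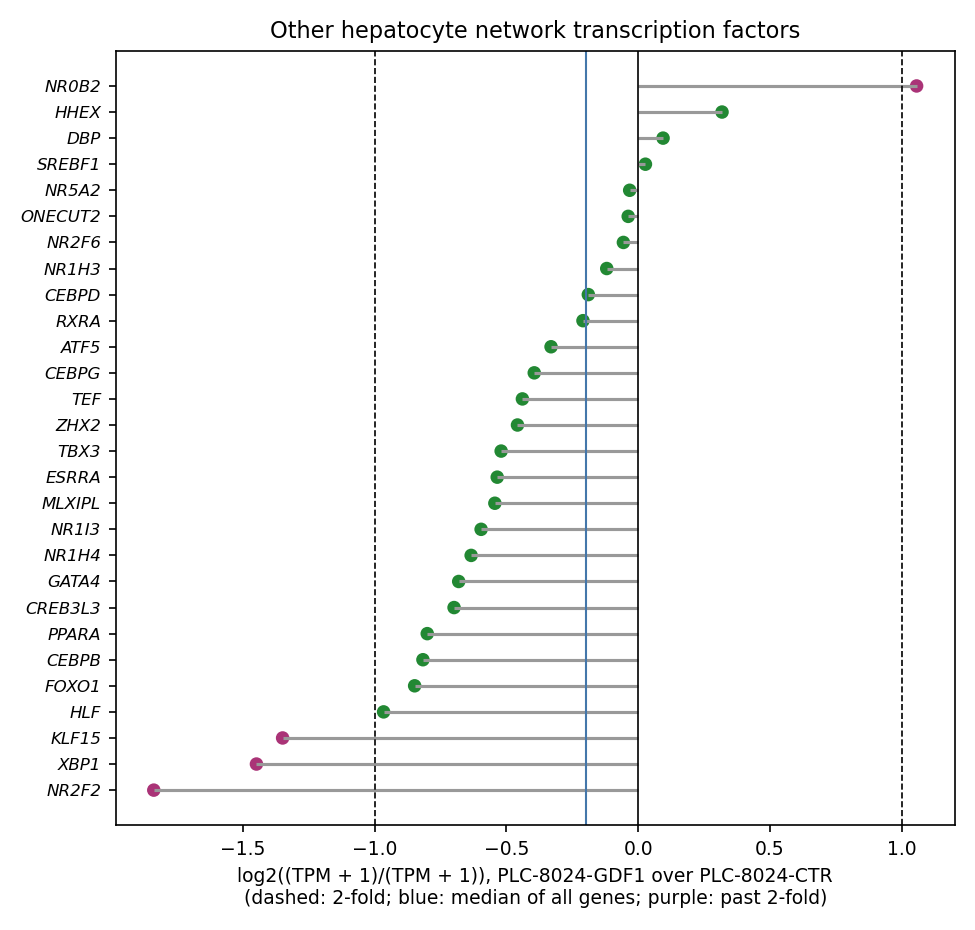
Log2 change (pseudocount 1 TPM) between the single libraries of PLC-8024-GDF1 and PLC-8024-CTR, for 28 of the 30 other liver transcription factors that reached 1 TPM. Dashed lines mark 2-fold, the blue line marks the median of all genes, and purple points passed 2-fold. NR2F2, XBP1 and KLF15 lie beyond the lower dashed line and NR0B2 beyond the upper one.

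Hepatocyte genes with textbook control by HNF4A, FOXA proteins, C/EBPα or PROX1 were read as a list of 28, of which 22 reached 1 TPM. Of those, 12 fell past 2-fold (54.5%, against 9.61% of all genes), none rose and 10 stayed within 2-fold. The list median was -1.09, and 19 of the 22 values were below 0, against 63.3% over all genes. The list was written with earlier results on ALB, AFP and TTR in these libraries known, so its direction is not independent evidence. With rescaled TPM 9 fell (6.85% of all genes did), as ALB (-0.998), CPS1 (-0.91) and APOC3 (-0.86) no longer passed. Whether these genes are bound by the factors in PLC-8024 cells was not measured.

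The list held several apolipoprotein genes, which are classical HNF4A targets. APOA1, the main protein of high-density lipoprotein, fell from 603 to 158 TPM (log2 change -1.93). APOA2 fell from 1754 to 732 TPM (-1.26), APOC3 from 543 to 259 TPM (-1.07) and APOC2 from 28.5 to 9.18 TPM (-1.54). APOA4 fell from 4.97 to 0.73 TPM (-1.79), while APOB was listed at 122 and 72.4 TPM (-0.74). MTTP, which loads lipid onto APOB, fell from 10.2 to 3.01 TPM (log2 change -1.49).

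Metabolic and secreted-protein genes made up much of the rest of the list. G6PC, the last enzyme of glucose production, fell from 36.1 to 6.25 TPM (log2 change -2.36). IGFBP1, a secreted binding protein for insulin-like growth factors with FOXA sites in its promoter, fell from 2967 to 621 TPM (-2.26). CPS1, the first enzyme of the urea cycle, fell from 344 to 158 TPM (-1.12). TTR, the thyroxine carrier long used to study FOXA and HNF4A binding, fell from 7.17 to 0.34 TPM (-2.61), the lowest value of the list. ALB and AFP, the adult and fetal serum albumins, also fell (-1.18 and -1.59). PCK1, which acts with G6PC in glucose production, was listed at 1.37 and 0.84 TPM (-0.37). SERPINA1, the most abundant gene of the list, was listed at 5308 and 2915 TPM (-0.86).

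Not every liver gene was lower. TF, which encodes transferrin, was listed at 1318 and 1434 TPM (log2 change 0.12) and OTC at 0.36 and 1.13 TPM (0.65). With the GC trend removed, 10 genes of the list fell and 2 rose, among them OTC (1.10), while 5.38% of all genes fell and 7.04% rose. CYP7A1, F9 and SLC10A1 were listed at or under 0.0001 TPM in both libraries.

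**Figure D4:**
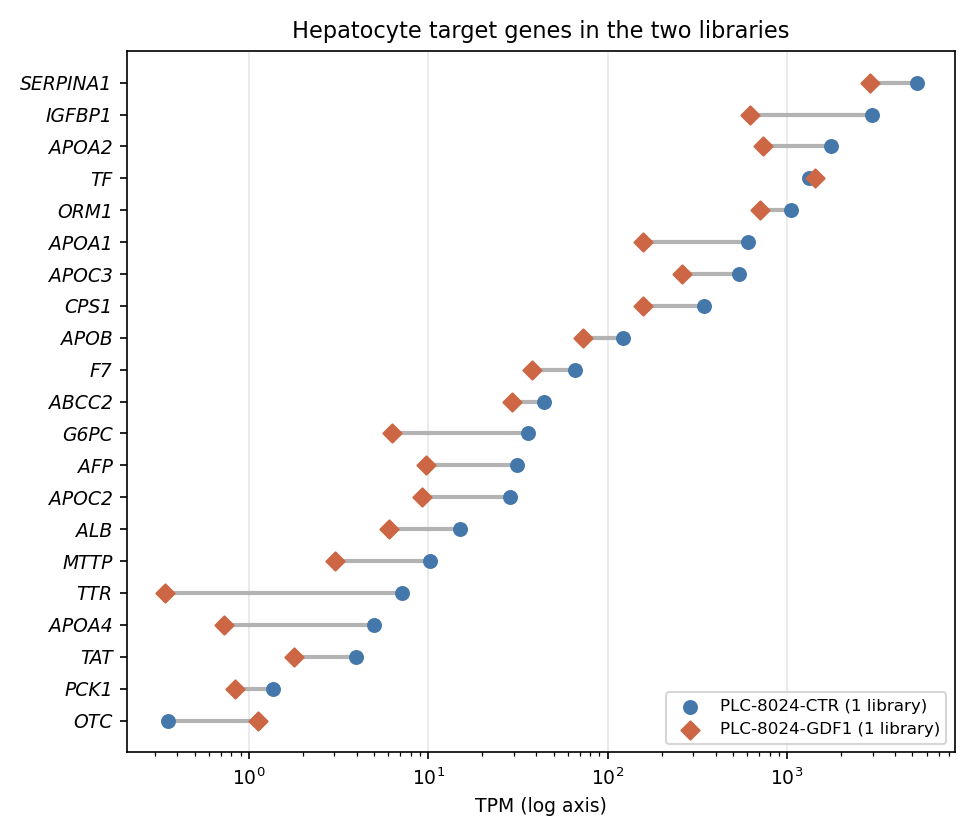
TPM (log axis) of 21 of the 22 hepatocyte target genes that reached 1 TPM, in the single PLC-8024-CTR library (circles) and the single PLC-8024-GDF1 library (diamonds). The diamond lies left of the circle for 19 genes, by the widest gap for TTR, and right of it for TF and OTC.

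The scale of the comparison mattered most for the factors with small changes. Genes with low GC content had lower changes in PLC-8024-GDF1 overall. The fitted trend was -0.48 at the GC content of HNF4G, -0.45 at that of PROX1, -0.16 at that of HNF4A, -0.05 at that of FOXA2 and 0.20 at that of CEBPA. FOXA2 was the factor that stayed past 2-fold under each of the 5 computations.

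**Figure D5:**
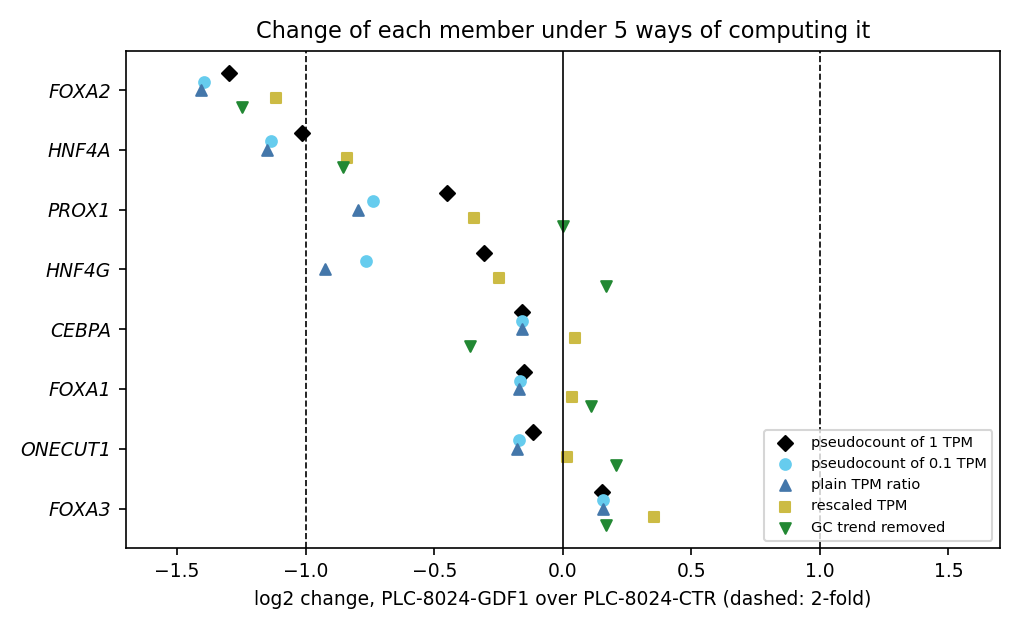
Log2 change between the single libraries of PLC-8024-GDF1 and PLC-8024-CTR for each of the 8 factors, computed with a pseudocount of 1 TPM, a pseudocount of 0.1 TPM, the plain TPM ratio, rescaled TPM and the GC trend removed. Dashed lines mark 2-fold. All symbols of FOXA2 lie beyond the lower dashed line, those of HNF4A lie on both sides of it, and those of CEBPA, FOXA1, ONECUT1 and HNF4G lie on both sides of 0.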

How the data were processed

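The labels and methods give 1 RNA-seq library of PLC-8024-CTR and 1 of PLC-8024-GDF1 cells. The authors trimmed reads with Trimmomatic 0.36, aligned them to hg19 with HISAT2 2.1.0, quantified genes with StringTie 1.3.3b and deposited TPM per gene, scaled by gene length and library total. The methods name RefSeq, whereas the files list Ensembl identifiers. The TPM sums are 999990 and 999995, so the TPM hold no depth and no interval can be given from them. The authors called differential genes with DEGseq from read counts, which were not used here.

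Tables were joined on the gene identifier. Changes used a pseudocount of 1 TPM, and counts over lists were restricted to genes reaching 1 TPM in one library or both. Alternatives were a pseudocount of 0.1 TPM, the plain ratio, no minimum or 5 TPM, PLC-8024-GDF1 TPM multiplied by 1.15 to centre all genes, and subtraction of a lowess trend (span 0.3) with GC content of the longest transcript. GENCODE v44 on GRCh37 placed 55726 identifiers. Promoters came from RefSeq on GRCh38.p14, and coordinates of the builds were not mixed. Python 3.11.15, numpy 2.4.6, pandas 2.3.3, statsmodels 0.14.6 and matplotlib 3.10.9 were used. Calculations were tested on simulated data.

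The factors and gene lists were chosen with earlier results of these data known. The genes to be named were the 8 factors, GDF1, CERS1, up to 12 genes past 2-fold and the 3 with the highest control TPM in each list, and neighbours with at least 1 TPM. A few genes that entered the counts are not reported here by name, in the text or the plots. Other genes named were chosen after their values were seen. No gene was named for likeness of pattern, since 2 libraries give 1 difference per gene.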

Additional observations from a re-analysis of the deposited data

How the results depend on the processing

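No paired analysis was possible because a single library stands for each condition. Single changes were compared by sign and by the 2-fold limit, counts with a tolerance of 1.5 times. Of the 8 factors, 1 passed 2-fold with rescaled TPM and 1 with the GC trend removed (FOXA2 both times), instead of 2, as HNF4A then lay at -0.84 and -0.86. Of the other liver transcription factors, 9 passed with a pseudocount of 0.1 TPM and 9 with the plain ratio, instead of 5. The median change of the factors, -0.16 at first, turned to 0.018 with rescaled TPM. With rescaled TPM, 3 factors changed sign: CEBPA (0.047), FOXA1 (0.035) and ONECUT1 (0.018). Rescaling multiplies every PLC-8024-GDF1 value by 1.15, so falls this small turn by arithmetic. With the GC trend removed, FOXA1 (0.11), HNF4G (0.17) and ONECUT1 (0.21) changed sign, since the trend is negative at their GC content. By these measures the other 24 results of single factors and 19 of counts and medians were kept. Even so, with the GC trend removed the median of the factors moved to -4.8e-05 and then lay below that of all genes (0.04). The target genes then went from 12 lower and 0 higher to 10 lower and 2 higher. With no minimum the factors were at -0.23 against 0 for all genes. Of 58174 genes, 34142 in PLC-8024-CTR and 33881 in PLC-8024-GDF1 were at or under 0.0001 TPM. These genes hold the median of all genes at 0, so it cannot place the factors against expressed genes. TPM carry no depth, which limits HNF4G, PROX1 and ONECUT1 most.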

Other observations

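Transcription factors of bile duct and progenitor cells were read from a list of 11, of which 9 reached 1 TPM. None of these 9 passed 2-fold, beside 14.4% of all genes in either direction. HES1, a Notch target, was listed at 72.5 TPM in control cells and 121 TPM in PLC-8024-GDF1 (log2 change 0.74, and 1.01 with the GC trend removed). SOX9, the progenitor and bile duct factor, was at 4.50 and 5.29 TPM (0.19), ELF3 at 226 and 160 TPM (-0.50) and TEAD4 at 37.2 and 33.2 TPM (-0.16). Of 5 bile duct cell markers, 4 reached 1 TPM. KRT7 (3.0 to 7.98 TPM) and KRT19 (4.46 to 10.9 TPM) rose (50% of the 4, against 4.82% of all genes). CFTR fell (1.69 to 0.21 TPM, 25% of the 4, against 9.61% of all genes). Its log2 change of -1.15 became -0.71, within 2-fold, with the GC trend removed. EPCAM was under 1 TPM in both libraries. AFP, which the paper groups with KRT7, KRT19, SOX9 and EPCAM as a liver progenitor marker, fell (31.4 to 9.75 TPM).

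Factors of gut, pancreas and lung were read from a list of 12, of which 3 reached 1 TPM. CDX2, the intestinal homeobox factor, was listed at 14 and 18.7 TPM, above HNF4A (11.4 and 5.15 TPM) in both libraries. PDX1, of pancreas and duodenum, fell from 6.83 to 2.46 TPM (log2 change -1.18), and HOXA13 was at 1.55 and 1.52 TPM. PDX1 was thus 1 of 3 that fell (33.3%, against 9.61% of all genes). NKX2-1, NKX2-2, NKX6-1, SOX2, SOX17 and FOXF1 were listed at 0.0001 TPM in both. Of 12 coregulators of nuclear receptors, 8 reached 1 TPM, and 2 of these (25%, against 9.61% of all genes) fell. NRIP1, a corepressor, fell from 2.48 to 0.030 TPM (-1.75). NCOR1, also a corepressor, fell from 21.5 to 10.2 TPM (-1.01, but -0.82 with rescaled TPM and -0.65 with the GC trend removed). Of the 8 changes, 6 were below 0 and 2 above, against 63.3% below 0 over all genes. Those below 0 included the coactivators EP300 (-0.72), MED1 (-0.66), CREBBP (-0.31) and NCOA3 (-0.27). NCOA6, also a coactivator, was at 8.28 and 9.68 TPM (0.20).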
